A study of Mus musculus with 9 samples.

Results

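Markers of Schwann precursors and immature glia were described across dermal cells of newborn mice that had been sorted on CD49f, the integrin α6 subunit. The set was a list of 8 genes, Fabp7, S100b, Pou3f1, Egr2, Gpr17, Moxd1, L1cam and Ncam1. Each was found as 1 row of the deposited table of 84809 rows by its gene symbol, and measured values played no part in finding the rows. The gates were CD49f-neg, CD49f-low and CD49f-high, with 3 libraries each, replicates 1 to 3, from mesenchymal cells taken directly from the dermis without culture. All mice were of the strain Krt14 cre;Rosa26-mTmG, in which Cre is driven by the promoter of keratin 14, a keratin of basal keratinocytes, and a membrane-bound fluorescent reporter switches colour where Cre has acted. The labels give neither the reporter colour of the sorted cells nor the source of the replicates, so p-values reflect only how these libraries vary, which may be technical. Levels are FPKM, fragments of a transcript scaled to its length and to the library size. Differences are between gate means of log2(FPKM + 1), a scale that understates the change of low genes.

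Schwann cells, the glia of peripheral nerves, arise from the neural crest by way of Schwann cell precursors, which travel along growing axons and later become immature Schwann cells. Immature cells then either myelinate an axon or ensheathe several thin axons without myelin, and precursors on skin nerves are also a source of melanocytes. The listed genes stand at different points of this path. Fabp7 encodes the brain fatty acid binding protein of precursors and radial glia, S100b a calcium-binding protein of glia that is also found in melanocytes, and Pou3f1 and Egr2 (also called Oct6 and Krox20) the transcription factors that switch on myelination in turn. Gpr17 is a receptor known from oligodendrocyte precursors, Moxd1 a monooxygenase-like protein that marks neural crest derivatives, and L1cam and Ncam1 are adhesion molecules of axons and non-myelinating glia.

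In these sorted cells 7 of the 8 rows rose in CD49f-high relative to CD49f-neg, where 13.9% of all rows tested did, and Ncam1 fell, as did 8.27%. The row of L1cam, among the 7, also covers 2 neighbouring genes. Gpr17 and Moxd1 were near the bottom of the scale in both other gates and reached 5.72 to 23.8 and 7.86 to 34.7 FPKM in CD49f-high. Fabp7 and S100b had already risen in CD49f-low. The CD49f-high libraries were unequal, with replicate 1 at 0.200 to 0.408 of the mean of replicates 2 and 3 for 5 of the genes, a pattern taken up below. Itga6, which encodes CD49f, followed the order of the gates, with a mean of 0.475 FPKM for CD49f-neg, 5.51 for CD49f-low and 19.9 for CD49f-high. In bulk libraries of sorted cells, fewer cells of a type and less RNA per cell cannot be told apart.

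Sequence upstream of the start sites is shown for 3 genes that were higher in CD49f-high, and for Egr2, a gene known to act downstream of Pou3f1. The windows are those of RefSeq on GRCm38.p6, searched over the 250 bases before each start, for 5 of the 8 genes with 10 start sites. Pou3f1 and Ncam1 had no window, and Gpr17 was not searched. What is printed leaves out bases that lie in an exon of GENCODE M21. The shown stretches lie on the plus strand at chr10:57784673-57784880 for Fabp7, chr10:76253586-76253835 for S100b, chr10:24223267-24223516 for Moxd1 and chr10:67537619-67537868 for the third start of Egr2. Capitals mark any match, on either strand, to ACAAAG or ACAATG (the core of SOX sites), GCGTGGGCG (an EGR site), ATGCAAAT (the octamer that POU factors bind), TATAAA or CANNTG (an E-box).
Fabp7: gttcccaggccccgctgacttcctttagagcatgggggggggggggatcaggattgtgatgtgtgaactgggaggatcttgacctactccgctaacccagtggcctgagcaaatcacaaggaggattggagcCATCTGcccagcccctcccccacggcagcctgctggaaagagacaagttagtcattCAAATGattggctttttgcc
S100b: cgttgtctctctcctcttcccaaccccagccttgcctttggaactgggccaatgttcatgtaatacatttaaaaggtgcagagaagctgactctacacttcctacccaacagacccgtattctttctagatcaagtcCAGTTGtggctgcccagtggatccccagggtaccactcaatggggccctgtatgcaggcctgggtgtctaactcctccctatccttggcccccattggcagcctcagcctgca
Moxd1: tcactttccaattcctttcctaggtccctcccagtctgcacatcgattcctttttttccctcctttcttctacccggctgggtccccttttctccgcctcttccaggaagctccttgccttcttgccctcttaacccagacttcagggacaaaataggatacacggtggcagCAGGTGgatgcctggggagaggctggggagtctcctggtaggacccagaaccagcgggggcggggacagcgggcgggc
Egr2: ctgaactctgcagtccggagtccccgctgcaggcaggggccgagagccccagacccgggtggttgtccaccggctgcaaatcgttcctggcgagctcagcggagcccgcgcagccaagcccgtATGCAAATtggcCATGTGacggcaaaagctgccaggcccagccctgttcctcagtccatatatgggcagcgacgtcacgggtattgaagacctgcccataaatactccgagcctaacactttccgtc
Of the 10 windows of 250 bases, 9 held an E-box, 8 of them outside exons, as did 66.2% of the 32851 windows of the same length in the table, and the shown stretches of Fabp7, S100b and Moxd1 held no other match. The octamer stood 127 bases before the third start of Egr2, and within 3 of the 10 windows, all of Egr2 and overlapping each other. It was present in 1.60% of all windows. The Egr2 window was chosen for show after the match was seen. No match to the SOX, EGR or TATA letters was found in the 10 windows, against 16.5% and 10.7% of all windows for the 2 SOX forms, 0.536% for EGR and 12.4% for TATA. These matches describe the letters in short windows and say nothing of binding.

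**Figure D1:**
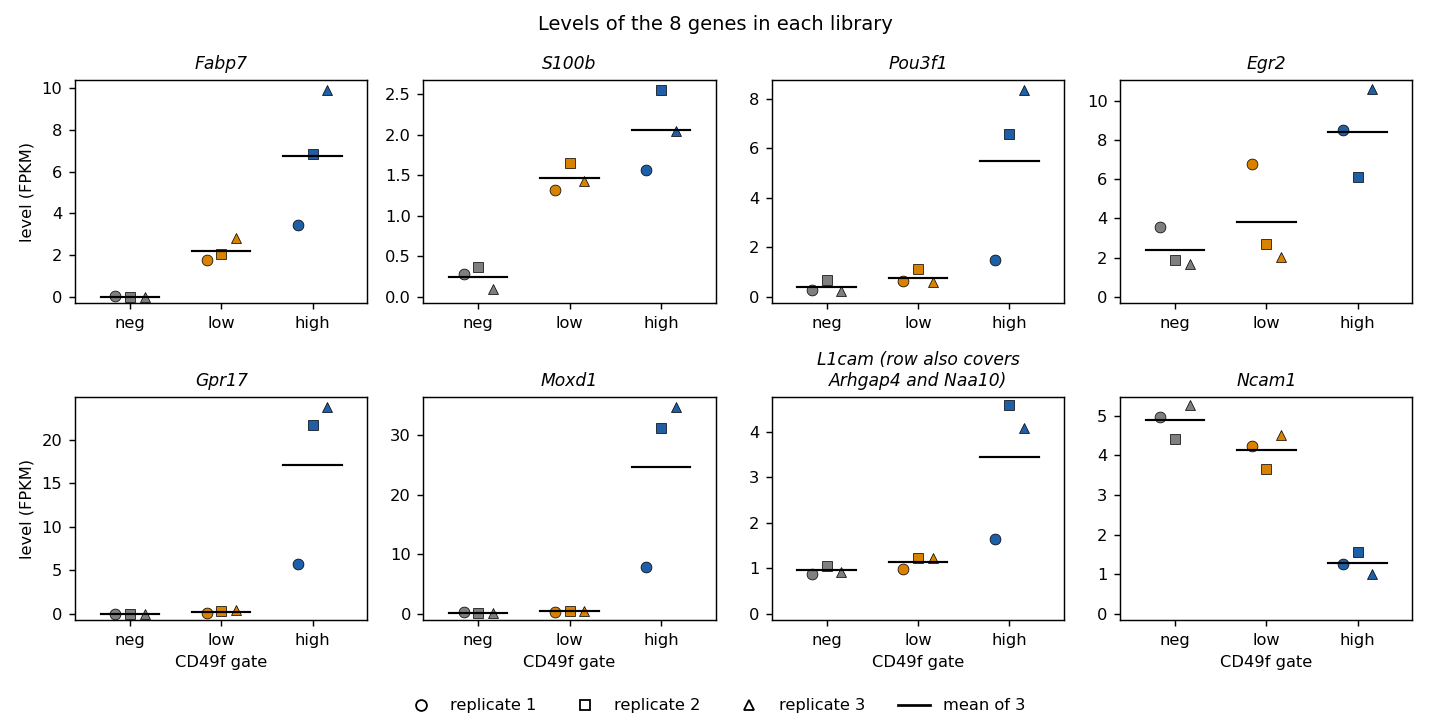
Level of each of the 8 genes in FPKM (vertical axes, each from 0 with its own range) by gate, from CD49f-neg to CD49f-high. Symbols are single libraries by replicate number and bars are means of 3. Gpr17 and Moxd1 stand near 0 outside CD49f-high, Fabp7 and S100b are already raised in CD49f-low, and Ncam1 runs the other way.

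All 8 genes passed the filter that decided which rows were tested, a level of 1 FPKM or more in 3 or more libraries. Gpr17 and Moxd1 passed only through CD49f-high, Pou3f1 through CD49f-high and 1 CD49f-low library, and Fabp7 and S100b through CD49f-low and CD49f-high, so for these genes a difference was partly set by the filter. In limma's test, with p-values adjusted over 20523 rows by the Benjamini-Hochberg method and a threshold of 0.05, 7 of the 8 genes were called higher and 1 lower in CD49f-high against CD49f-neg. Of all rows tested, 22.1% were called in that comparison, 13.9% higher and 8.27% lower. In CD49f-high against CD49f-low 5 genes were called higher and 1 lower, where 16.4% of rows were called, 5.93% higher and 10.5% lower. In CD49f-low against CD49f-neg 2 genes were called higher and none lower by limma, where 15.4% of rows were called, 12.8% higher and 2.62% lower. The median difference of the 8 genes was 1.75, 1.12 and 0.34 in these comparisons, beside 0.07, -0.15 and 0.21 over all rows. The 3 comparisons share libraries, and the 8 genes are not replicates of each other.

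Fabp7 (chromosome 10, 57784881 to 57788450, plus strand) encodes a carrier of fatty acids. Its level was 3.42, 6.86 and 9.90 FPKM in CD49f-high replicates 1 to 3, against 0.0318, 0 and 0 FPKM in CD49f-neg. The CD49f-low libraries lay between, at 1.77, 2.06 and 2.81 FPKM. The 3 gates did not overlap, and the CD49f-neg value of 0.0318 FPKM stood for about 1 fragment by the depth estimate. The difference of CD49f-high from CD49f-neg was 2.84 (SE 0.28, limma adjusted p = 9.78e-05) and that of CD49f-low from CD49f-neg 1.66 (SE 0.28, adjusted p = 0.00423). With so few fragments in CD49f-neg, both sizes depend on the added 1, and adding 0.1 instead gave 5.83 and 4.37. CD49f-high exceeded CD49f-low by 1.18 (SE 0.28, adjusted p = 0.0183), a call that was lost without CD49f-high replicate 2 (adjusted p = 0.0570), without replicate 1 (0.0666) or 2 (0.0572) of CD49f-low and with no filter (0.0508).

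S100b (chromosome 10, 76253853 to 76261159, plus strand) was the gene in which the positive gates were closest. It stood at 1.56, 2.55 and 2.04 FPKM in CD49f-high, 1.31, 1.65 and 1.43 in CD49f-low and 0.281, 0.374 and 0.0988 in CD49f-neg. All 6 positive libraries lay above all CD49f-neg libraries, while the positive gates overlapped. It rose in CD49f-high against CD49f-neg by 1.28 (SE 0.15, limma adjusted p = 0.000284) and in CD49f-low against CD49f-neg by 0.98 (SE 0.15, adjusted p = 0.00257). The difference between CD49f-high and CD49f-low was 0.30 (95% confidence interval -0.04 to 0.64, adjusted p = 0.216). Dip2a, which overlaps S100b on the opposite strand and could lend it reads, did not differ between CD49f-high and CD49f-neg beyond the spread (difference -0.09, limma adjusted p = 0.743).

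Pou3f1 (chromosome 4, 124656807 to 124660655, plus strand) encodes the factor that precedes Egr2 in myelinating Schwann cells. It stood at 1.50, 6.60 and 8.37 FPKM in CD49f-high, 0.638, 1.11 and 0.596 in CD49f-low and 0.292, 0.686 and 0.257 in CD49f-neg. CD49f-high did not overlap either other gate, and its replicate 1 lay nearer to the highest CD49f-low library than to its own replicates. The difference was 2.01 (SE 0.42, limma adjusted p = 0.00703) against CD49f-neg and 1.67 (SE 0.42, adjusted p = 0.0232) against CD49f-low. The second call was lost without CD49f-high replicate 2 (adjusted p = 0.0770) or 3 (0.0762), without CD49f-low replicate 1 (0.0711) or 3 (0.0788), with no filter (0.0637) and in a fit on the 6 libraries compared (0.0529). CD49f-low differed from CD49f-neg by 0.34 (adjusted p = 0.594). An antisense gene, Gm2164, overlaps Pou3f1.

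Egr2 (chromosome 10, 67535475 to 67542188, plus strand) drives the myelin programme in Schwann cells, and is also an immediate early gene that many cell types switch on when stimulated. It was present in every library, at 8.51, 6.13 and 10.6 FPKM in CD49f-high, 6.75, 2.72 and 2.01 in CD49f-low and 3.58, 1.88 and 1.67 in CD49f-neg. CD49f-high lay above CD49f-neg without overlap, and CD49f-low replicate 1 lay within the CD49f-high range. The difference of CD49f-high from CD49f-neg was 1.49 (SE 0.35, limma adjusted p = 0.0135). That call was lost without CD49f-neg replicate 2 (adjusted p = 0.0516) or 3 (0.0554). CD49f-high differed from CD49f-low by 1.06 (SE 0.35, adjusted p = 0.0720), which passed with the replicate number as a block (adjusted p = 0.0258) and without CD49f-low replicate 1 (0.0107). Between CD49f-low and CD49f-neg the difference was 0.43 (adjusted p = 0.414).

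Other immediate early genes moved with Egr2 in part. Of 15 such genes, all measured, 5 were called higher in CD49f-high against CD49f-neg, 2 higher against CD49f-low and 1 higher in CD49f-low against CD49f-neg, with none lower in limma's test. The shares of all rows called higher in these comparisons were 13.9%, 5.93% and 12.8%. The summed level of the 15 genes was 2810 to 3002 FPKM in CD49f-high, 2033 to 2562 in CD49f-low and 1455 to 2695 in CD49f-neg. In CD49f-neg and CD49f-low the summed level and Egr2 were both highest in replicate 1. In CD49f-high the sum was highest in replicate 2 (3002 FPKM), where Egr2 was lowest, and lowest in replicate 3 (2810 FPKM), where Egr2 was highest. The related factor Egr3 averaged 16.5 ± 5.01 FPKM in CD49f-high against 2.06 ± 0.741 in CD49f-neg (SD, n = 3 each; difference 2.51, limma adjusted p = 0.000134), and Zfp36, an mRNA-destabilizing protein of the same response, 247 ± 69.4 against 59.8 ± 24.4 (difference 2.06, adjusted p = 0.000712). Fos rose by 0.76 (adjusted p = 0.0157). The part of this response in the Egr2 level was not tested.

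The list of regulators around Pou3f1 and Egr2 held 13 measured rows of 14, of which 4 rose and 1 fell in CD49f-high against CD49f-neg by limma. Over all rows tested, 13.9% rose and 8.27% fell in that comparison. Nab1, a corepressor that binds EGR proteins, averaged 12.6 ± 2.06 FPKM in CD49f-high against 4.55 ± 0.957 in CD49f-neg (SD, n = 3 each; difference 1.29, adjusted p = 0.000269), and Id4, an inhibitor of basic helix-loop-helix factors, 12.7 ± 2.64 against 5.52 ± 0.632 (difference 1.06, adjusted p = 0.000799). Adgrg6, the adhesion receptor that Schwann cells need to switch on Pou3f1 and Egr2, stood at 1.85, 5.40 and 6.27 FPKM in CD49f-high against 1.07, 0.702 and 0.389 in CD49f-neg (difference 1.59, limma adjusted p = 0.00541). Adgrg6 was named after its values were seen. Without CD49f-high, Adgrg6 would not have passed the filter, so its call is partly set by it. Pou3f2, the close relative of Pou3f1, was under 1 FPKM in all 9 libraries and was not tested.

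**Figure D2:**
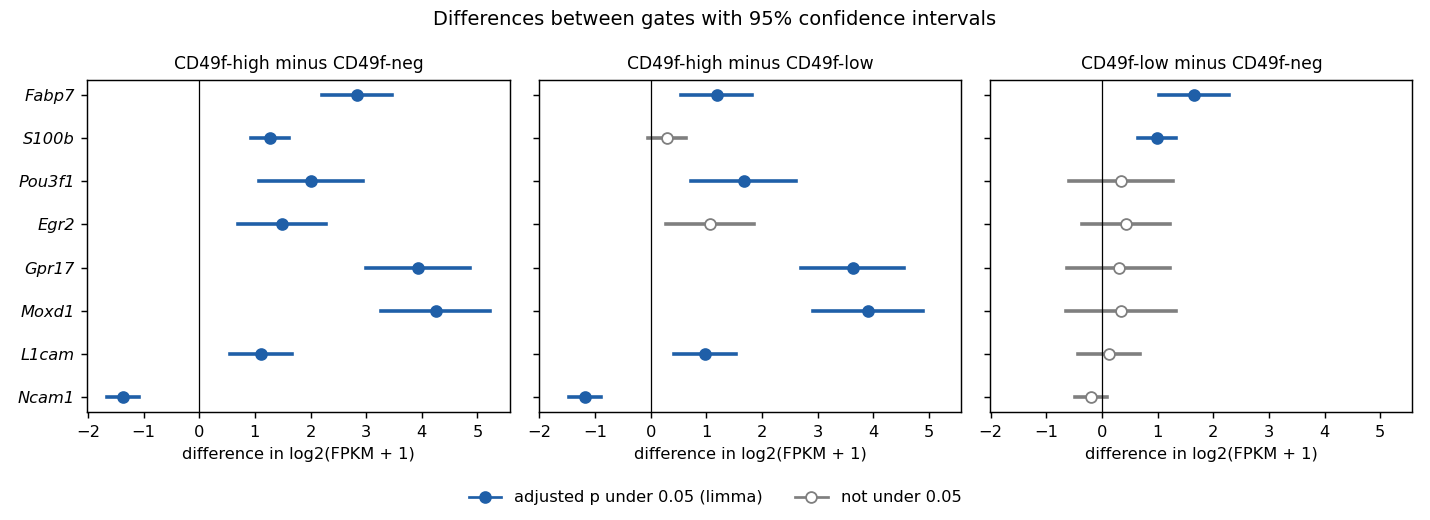
Difference between gate means of log2(FPKM + 1) for each gene (horizontal axes), for CD49f-high minus CD49f-neg, CD49f-high minus CD49f-low and CD49f-low minus CD49f-neg. Lines are 95% confidence intervals and filled points have a limma adjusted p under 0.05. Fabp7 and S100b are the filled points of the third panel, and Ncam1 is the point below 0 in the first and second.

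Gpr17 (chromosome 18, 31942997 to 31949636, minus strand) encodes a G protein-coupled receptor. It stood at 5.72, 21.7 and 23.8 FPKM in CD49f-high, 0.0849, 0.307 and 0.400 in CD49f-low and 0.00765, 0.0295 and 0.0282 in CD49f-neg. The CD49f-neg values correspond to about 1 to 4 fragments, and all 3 gates were apart. CD49f-high exceeded CD49f-neg by 3.93 (SE 0.41, limma adjusted p = 0.000143) and CD49f-low by 3.63 (SE 0.41, adjusted p = 0.000366). CD49f-low differed from CD49f-neg by 0.30, short of the threshold (adjusted p = 0.637), although the libraries did not overlap. Gpr17 overlaps Lims2, an adhesion adaptor gene on the opposite strand that rose as well, to 7.13, 8.49 and 9.03 FPKM in CD49f-high, against CD49f-neg (0.559, 0.699 and 0.414 FPKM; difference 2.56, adjusted p = 7.15e-06). Strand use is not given in the labels, and reads of overlapping genes may be shared.

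Moxd1 (chromosome 10, 24223517 to 24302790, plus strand), which no other annotated gene overlaps, had the steepest difference of the set on the log2(FPKM + 1) scale. With 0.1 added in place of 1, Gpr17 differed more from CD49f-neg (6.90) than Moxd1 did (6.46). Moxd1 stood at 7.86, 31.2 and 34.7 FPKM in CD49f-high, 0.276, 0.546 and 0.538 in CD49f-low and 0.233, 0.114 and 0.0803 in CD49f-neg. The lowest CD49f-high library was far above every library of the other gates. The difference was 4.25 (SE 0.44, limma adjusted p = 0.000124) against CD49f-neg and 3.90 (SE 0.44, adjusted p = 0.000341) against CD49f-low, and the calls of Gpr17 and Moxd1 in both comparisons held in all 17 alternative settings. CD49f-low differed from CD49f-neg by 0.34 (adjusted p = 0.606). Of the 3 relatives of Moxd1 searched for, only Dbh, the enzyme of noradrenaline synthesis, was found as exactly 1 row. Dbh was at or under 0.0604 FPKM in every library, and the other relatives were not described.

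L1cam (chromosome X, 73853778 to 73896105, minus strand) encodes an adhesion molecule of the immunoglobulin superfamily. Its row joins L1cam with the neighbouring genes Arhgap4 and Naa10, and which of the 3 genes the row measured is uncertain. Avpr2 overlaps it on the opposite strand. The row stood at 1.64, 4.59 and 4.09 FPKM in CD49f-high, 0.984, 1.23 and 1.22 in CD49f-low and 0.886, 1.06 and 0.928 in CD49f-neg. CD49f-high lay above both other gates, which overlapped each other. The difference was 1.11 (SE 0.25, limma adjusted p = 0.0100) against CD49f-neg and 0.98 (SE 0.25, adjusted p = 0.0240) against CD49f-low. The second call was lost in 7 settings, without CD49f-high replicate 2 (adjusted p = 0.0751) or 3 (0.0873), without CD49f-low replicate 1 (0.0772), 2 (0.0587) or 3 (0.0647), with no filter (0.0620) and in a fit on the 6 libraries compared (0.0565).

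Ncam1 (chromosome 9, 49502136 to 49798925, minus strand), the neural cell adhesion molecule, is also made by muscle precursors and by the mesenchyme of developing hair follicles. It stood at 1.26, 1.56 and 1.01 FPKM in CD49f-high, 4.24, 3.65 and 4.53 in CD49f-low and 4.96, 4.42 and 5.27 in CD49f-neg. Every CD49f-high library was below every other library. Ncam1 fell in CD49f-high by 1.38 against CD49f-neg (SE 0.13, limma adjusted p = 6.89e-05) and by 1.18 against CD49f-low (SE 0.13, adjusted p = 0.000290). CD49f-low differed from CD49f-neg by -0.20 (adjusted p = 0.312). The row also covers 7 non-coding loci within the gene.

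The family and partners of L1cam and Ncam1 split in direction. Of 15 genes, 10 were measured, and limma called 4 higher and 3 lower in CD49f-high against CD49f-neg, 2 higher and 4 lower against CD49f-low, and 4 higher and 1 lower in CD49f-low against CD49f-neg. Over all rows tested, the shares higher and lower were 13.9% and 8.27%, 5.93% and 10.5%, and 12.8% and 2.62% in these comparisons. Fgfr1, a growth factor receptor that both adhesion molecules can engage, averaged 20.7 ± 4.42 FPKM in CD49f-high against 91.1 ± 6.76 in CD49f-low (SD, n = 3 each; difference -2.10, adjusted p = 3.82e-05). Nrcam, of the L1 family, averaged 0.871 ± 0.318 against 3.15 ± 0.336 (difference -1.16, adjusted p = 0.000757). Ank2, an ankyrin that links L1 family proteins to the cytoskeleton, averaged 3.49 ± 0.267 FPKM in CD49f-high against 7.26 ± 0.436 in CD49f-neg (difference -0.88, adjusted p = 0.000309). Chl1, the close homologue of L1, rose in CD49f-high against CD49f-neg by 1.37 (adjusted p = 0.00458) and was named after its values were seen. Without CD49f-high, Chl1 would not have passed the filter, and without CD49f-low 2 of the 10 measured genes, Nrcam among them, would not. The calls of these genes are partly set by the filter. Among relatives of S100b, 9 rows were measured, and limma called 2 higher and 1 lower in CD49f-high against CD49f-neg. Of the 9, 1 would not have passed the filter without CD49f-high. Over all rows, the shares in CD49f-high against CD49f-neg were 13.9% higher and 8.27% lower. Among relatives of Fabp7, 2 rows were measured, and the 1 called higher in that comparison joins Fabp4, Fabp9 and Pmp2.

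The levels had a different order in each gate. In CD49f-high the order of means was Moxd1, Gpr17, Egr2, Fabp7, Pou3f1, L1cam, S100b and Ncam1, at 24.6, 17.1, 8.42, 6.73, 5.49, 3.44, 2.05 and 1.28 FPKM. The ranges of each neighbouring pair in this order overlapped across the 3 libraries, except those of S100b and Ncam1, whose lowest and highest libraries both rounded to 1.56 FPKM without overlap. In CD49f-neg the order was led by Ncam1 at 4.88 and Egr2 at 2.38 FPKM, and the other 6 genes averaged under 1 FPKM. In CD49f-low Ncam1 (4.14), Egr2 (3.83) and Fabp7 (2.21) led.

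**Figure D3:**
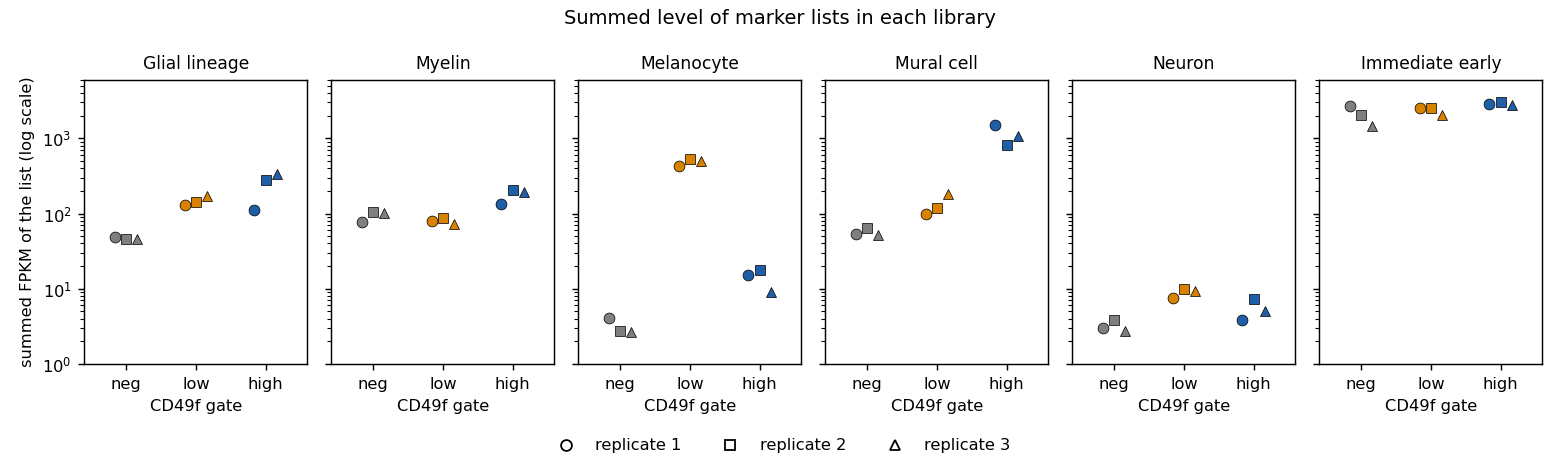
Summed FPKM of 6 gene lists (vertical axis, log scale) in each library by gate, with symbols for the replicate number. The glial lineage list is lowest in CD49f-neg, the melanocyte list peaks in CD49f-low at 431 to 529 FPKM, and the mural cell list peaks in CD49f-high at 821 to 1510 FPKM.

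Other genes of the glial lineage were then set beside the 8 genes. Of 18 regulators and early Schwann genes, 17 were measured, and limma called 14 higher and 0 lower in CD49f-high against CD49f-neg, 9 higher and 2 lower in CD49f-high against CD49f-low, and 7 higher and 0 lower in CD49f-low against CD49f-neg. The median difference of the list was 2.23, 1.33 and 0.89. Erbb3, the neuregulin receptor of glia, stood at 7.73, 25.2 and 30.2 FPKM in CD49f-high, 11.2, 12.3 and 14.8 in CD49f-low and 0.109, 0.184 and 0.0518 in CD49f-neg. Sox10, the transcription factor shared by glia and melanocytes, had a similar course, at 7.46, 32.5 and 44.9 FPKM in CD49f-high and 20.7, 21.9 and 26.7 in CD49f-low. Both genes rose in each positive gate against CD49f-neg, and the difference between CD49f-high and CD49f-low was 0.50 for Erbb3 (limma adjusted p = 0.425) and -0.03 for Sox10 (adjusted p = 0.976). Gfra3, a receptor for artemin on sensory axons and Schwann cells, was like Gpr17 and Moxd1, at 6.91, 27.5 and 34.7 FPKM in CD49f-high and at or under 0.309 FPKM in every other library. Sox2 and Tfap2a, factors of early progenitors, were the genes of the list called lower in CD49f-high against CD49f-low, by -1.25 (adjusted p = 0.00484) and -1.56 (adjusted p = 0.000960). Ednrb, the endothelin receptor of melanocyte and glial precursors, stood at 10.2, 25.6 and 21.9 FPKM in CD49f-high against 27.5, 37.2 and 48.7 in CD49f-low, without overlap (difference -0.997, limma adjusted p = 0.0683). Of the 17 measured genes, 5 would not have passed the filter without CD49f-high, and their calls are partly set by it. Gfap, of mature non-myelinating glia, was under 0.12 FPKM in all 9 libraries.

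The myelin list held 8 measured rows of 15, of which limma called 4 higher and 0 lower in CD49f-high against CD49f-neg. Mal, a membrane protein of myelin, stood at 2.93, 13.7 and 16.4 FPKM in CD49f-high and at or under 0.0794 FPKM elsewhere (difference from CD49f-neg 3.31, SE 0.45, limma adjusted p = 0.000682).

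Markers of other cell types differed between the gates as well. Beside the counts that follow, limma called 13.9% of all rows higher in CD49f-high and 12.8% in CD49f-low, each against CD49f-neg. The 10 melanocyte genes summed to 8.94 to 17.7 FPKM in CD49f-high, 431 to 529 in CD49f-low and 2.63 to 4.06 in CD49f-neg, and 10 of 10 were called higher in CD49f-low against CD49f-neg, the comparison in which Fabp7 and S100b rose. Of these 10, 6 would not have passed the filter without CD49f-low, so their calls are partly set by it. Mlana, a melanosome protein, stood at 36.0, 37.9 and 45.3 FPKM in CD49f-low, against 0.175, 0 and 0 FPKM in CD49f-neg. The part of pigment cells in the Fabp7 and S100b levels of CD49f-low was not tested. In CD49f-high the mural cell list summed to 821 to 1510 FPKM, against 51.9 to 63.7 in CD49f-neg, with 10 of 10 genes called higher. The 6 perineurial genes, of the sheath around nerve bundles, summed to 27.7 to 39.3 FPKM in CD49f-high against 3.56 to 6.07 in CD49f-neg, with 5 of 5 measured genes called higher, 2 of which passed the filter only with CD49f-high. The other gene, Tenm2, fell short of the filter and ran the other way, at 0.483, 0.579 and 0.510 FPKM in CD49f-high against 1.27, 0.949 and 1.23 in CD49f-neg. The 9 rows of keratinocyte genes summed to 26.4 to 64.1 FPKM in CD49f-high against 2.47 to 3.56 in CD49f-neg, with 8 of 8 measured rows called higher. Without CD49f-high, 2 of the 8 would not have passed the filter, so their calls are partly set by it.

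Neuronal markers were highest in CD49f-low. Their summed level was 3.84 to 7.29 FPKM in CD49f-high, 7.65 to 9.99 in CD49f-low and 2.74 to 3.81 in CD49f-neg over 10 genes, and 2 of them were measured. Stmn2, a tubulin-binding protein of growing axons, stood at 5.16, 6.25 and 6.89 FPKM in CD49f-low against 1.39, 2.03 and 2.03 in CD49f-neg (difference 1.34, limma adjusted p = 0.00130), and fell in CD49f-high against CD49f-low by 1.47 (adjusted p = 0.000584). Tubb3, a neuronal tubulin, was not called in any comparison. Snap25, a synaptic protein, was under 0.1 FPKM in every library. Genes of blood endothelium summed to 22.3 to 41.3 FPKM in CD49f-high against 3.87 to 5.59 in CD49f-neg. Limma called 4 of 7 measured genes higher in this comparison, beside 13.9% of all rows. Of these 7, 3 would not have passed the filter without CD49f-high, so their calls are partly set by it. Lymphatic genes summed to 14.8 to 20.0 FPKM in CD49f-high against 12.7 to 18.4 in CD49f-neg. Limma called 2 of 3 measured genes higher and 1 lower, beside 13.9% and 8.27% of all rows. Lyve1, a hyaluronan receptor, rose by 2.87 (limma adjusted p = 0.000240) and Flt4, a growth factor receptor, by 1.68 (adjusted p = 0.00106), while Pdpn, a mucin-type protein, fell by 1.26 (adjusted p = 0.0141). Lyve1 and Flt4 would not have passed the filter without CD49f-high, so their calls are partly set by it. Immune genes stayed under 5 FPKM in sum in every library, with Ptprc, the leukocyte antigen CD45, at or under 0.0107 FPKM.

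Beside the fall of Ncam1, the fibroblast list fell too. Its summed level was 4183 to 6213 FPKM in CD49f-high, 5761 to 6965 in CD49f-low and 14128 to 17166 in CD49f-neg. Against CD49f-neg, 9 of 10 genes were called lower in CD49f-high and 8 of 10 in CD49f-low. The shares of all rows called lower in these comparisons were 8.27% and 2.62%. The dermal papilla list summed to 36.6 to 55.2 FPKM in CD49f-high, 222 to 262 in CD49f-low and 61.8 to 79.1 in CD49f-neg. All 12 of its genes were called lower in CD49f-high against CD49f-low, as were 10.5% of all rows tested. Ncam1 fell by 1.18 in that comparison. Without CD49f-low, 3 of the 12 genes would not have passed the filter, so their calls are partly set by it. The myogenic list summed to 16.6 to 24.7 FPKM in CD49f-low against 1.80 to 2.95 in CD49f-neg, a pair of gates between which Ncam1 did not pass the test. In CD49f-high it summed to 30.0 to 58.7 FPKM, with Des, a filament protein also made by mural cells, at 28.2 to 54.3 FPKM of that. Of 5 measured myogenic genes, limma called 4 lower and 1, Des, higher in CD49f-high against CD49f-low, beside 10.5% and 5.93% of all rows. The 4 called lower would not have passed the filter without CD49f-low, so their calls are partly set by it. The part of these cell types in the Ncam1 level was not tested.

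The unequal CD49f-high libraries were compared gene by gene. Replicate 1 stood at 0.200 of the mean of replicates 2 and 3 for Pou3f1, 0.238 for Moxd1, 0.252 for Gpr17, 0.378 for L1cam and 0.408 for Fabp7. It stood at 0.681 for S100b, 0.981 for Ncam1 and 1.02 for Egr2. Over all rows past the filter the median of this ratio was 1.03, and it was under 0.5 in 4.27% of them. Over the 2844 rows called higher in CD49f-high against CD49f-neg it was under 0.5 in 5.34%.

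Glial and myelin genes were low in the same library. Among genes that share no row and average 1 FPKM or more across CD49f-high, the ratio was under 0.5 for 12 of 15 glial lineage genes (median 0.328) and 8 of 9 myelin genes (median 0.209). It was under 0.5 for 0 of 9 mural cell genes (median 1.40), 0 of 5 melanocyte genes, 0 of 6 keratinocyte genes, 0 of 8 fibroblast genes and 0 of 15 immediate early genes. It was also under 0.5 for 5 of 8 genes of the L1 and NCAM list (Ank3, Chl1, Gfra1, Ncam2 and St8sia2), 2 of 5 perineurial genes (Cldn1 and Itgb4), 1 of 2 neuronal genes (Tubb3) and 1 of 13 genes of the Pou3f1 and Egr2 list (Adgrg6). In the dermal papilla list it was under 0.5 for 1 of 10 genes, Sox2, which the glial list also holds. Within the set, Moxd1 kept a near constant ratio to Gpr17, at 1.37, 1.44 and 1.46 in CD49f-high replicates 1 to 3. Pou3f1 stood at 0.262, 0.305 and 0.352 of Gpr17. The ratio to Gpr17 was less even for Fabp7, at 0.597, 0.317 and 0.417, and for Egr2, at 1.49, 0.283 and 0.447. Without CD49f-high replicate 1, limma called all 8 genes in CD49f-high against CD49f-neg and the same number as before, 6, against CD49f-low. Of the 20523 rows tested, 4004 and 3281 were called in these comparisons without that library.

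**Figure D4:**
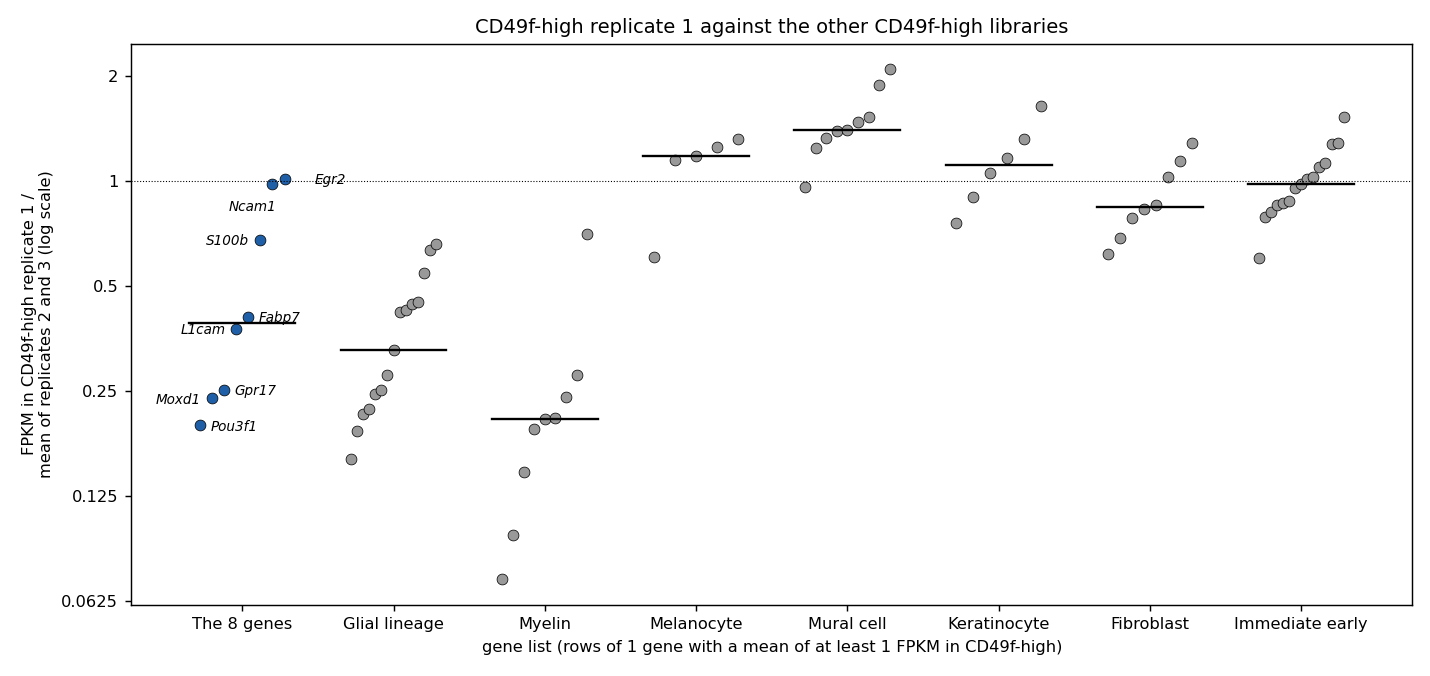
Ratio of the level in CD49f-high replicate 1 to the mean of CD49f-high replicates 2 and 3 (vertical axis, log scale) for single genes, by list, with bars at the median of each list; the L1cam row joins 3 genes. Gpr17, Moxd1, Pou3f1, Fabp7 and L1cam lie under 0.5 with most glial and myelin genes, while Egr2 and Ncam1 lie near 1 with the immediate early and melanocyte genes.

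The genes whose pattern was most like each of the 8 were ranked by Pearson's r of log2(FPKM + 1) over the 9 libraries, among rows of 1 named gene. The libraries of a gate are not independent points, so r serves as a measure of likeness without a test. Gpr17 and Moxd1 were each other's nearest gene (r = 0.999), followed for both by Gfra3 (0.998 with each) and Sorcs1, a sorting receptor of neurons (0.996 with each). The L1cam row was nearest to Ptprz1 (r = 0.997), a receptor phosphatase of glial precursors, Lgi4 (0.990), a ligand that Schwann cells secrete and need for myelination, and Plxnb3 (0.990), a semaphorin receptor. For Pou3f1 the nearest were Vwa1 (0.991), a matrix protein of peripheral nerve, Tnfaip8l1 (0.989) and Ptprz1 (0.986). Fabp7 was nearest to Dip2b (0.993), Wnk2 (0.992) and Thsd1 (0.991), and S100b to Dusp18 (0.984), Card10 (0.982) and Ctnna1 (0.977). Egr2 had the least close neighbours, Gcnt2 (0.945), Bach1 (0.943) and Dock10 (0.942). Ncam1 was nearest to Myh10 (0.994), a non-muscle myosin, Dchs1 (0.990), a large cadherin, and Cped1 (0.989).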

How the data were processed

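RNA of 9 libraries, 3 per gate, was sequenced. Per the labels' protocols, Trizol lysis followed the sort directly, and a NEBNext Ultra kit served for library construction. The authors deposited FPKM values, 1 column per library. The tools named are TopHat2, StringTie and FastQC, with the build GRCm38 and without versions, per the submitters' processing notes. Libraries were grouped by their titles. The spacing of low FPKM values of single-exon GENCODE M21 genes, which tend to whole fragments, gave about 23.7 to 27.3 fragments per FPKM and kilobase of exon, a rough estimate of depth, since 33.7 to 44.9% of those values lay within 0.1 of a whole fragment.

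Rows with 1 FPKM or more in 3 or more libraries were tested as log2(FPKM + 1) in limma 3.58.1 (R 4.3.3; 1 mean per gate over all 9 libraries, moderated by empirical Bayes with a trend on mean level; 6 residual degrees of freedom). The method was tested on simulated data. Likeness, list sums and figures were made in Python 3.11.15 with pandas 2.3.3 and matplotlib 3.10.9. Same-numbered libraries of different gates deviated together from their gate means (r = 0.252 to 0.520 in 9 pairs, against -0.453 to 0.118 in 18 pairs of different numbers), so the values pair the numbers, and the labels give no source for the pairing. The number served as a block only as an alternative. Other alternatives were another pseudocount, filters and scalings, no trend, a fit on the 6 libraries compared and leaving out each library, on the same rows.

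The 8 genes and the gene lists were chosen with earlier results of these data known. Besides the 8 genes and Itga6, the text names, per list, up to 3 measured genes with the smallest adjusted p in any comparison, or the 2 most abundant if none was called, and the 3 most alike genes. Adgrg6, Chl1, Sox10, Ednrb, Gfap, Des, Tenm2, Snap25, Ptprc, Pou3f2, Dbh the overlapping genes and those listed for a low ratio in CD49f-high replicate 1 were chosen after their values were seen. 1 gene that the rule names is not reported here.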

Additional observations from a re-analysis of the deposited data

How the results depend on the processing

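Over 24 differences of single genes and 17 other settings, 370 of 393 values kept their direction and their side of the threshold, 19 lost the call, 2 gained it and 2 changed sign. The sign changes were those of the L1cam row between CD49f-low and CD49f-neg, which was not called and stood at -0.016 with median-of-ratios scaling and at -0.13 with quantile normalization, settings that moved the median difference of all rows in that comparison to 0.01 and -0.01 from 0.21. The number of the 8 genes called was 8, 6 and 2 for CD49f-high against CD49f-neg, CD49f-high against CD49f-low and CD49f-low against CD49f-neg. With at least 5 FPKM in at least 3 libraries it was 3, 2 and 0, because 3 of the 8 genes were then tested. With no filter it was 3 in the second comparison, with p-values adjusted over 84809 rows in place of 20523. The calls lost were those of Fabp7, Pou3f1 and L1cam, whose differences were unchanged. Their SEs were 0.2813, 0.421 and 0.245, against 0.2806, 0.417 and 0.246 with the filter. The cause was not tested. Leaving out 1 library gave 7 to 8, 3 to 6 and 2 to 2, the 3 being without CD49f-high replicate 2. With the replicate block the numbers were 8, 7 and 2, the added call being Egr2, and it changed no other call of the 8 genes. Rows called over the whole table ranged over 3232 to 4653, 2201 to 3585 and 1614 to 3764 when 1 library was left out (in the third, 1726 and 1681 when CD49f-low replicate 2 or 3 was out, and 1614 for CD49f-neg replicate 3; in the second, 2201 without CD49f-low replicate 3), and with the block were 6408, 5309 and 5806, against 4541, 3367 and 3160. Without the filter, with 84809 rows, they were 5052, 3695 and 2707, and with the stricter filter, with 7340 rows, 1911, 1323 and 1358. After median-of-ratios scaling the calls of CD49f-low against CD49f-neg were 1117 higher and 1093 lower, against 2623 and 537, and those of CD49f-high against CD49f-low 1614 higher and 1331 lower, against 1216 and 2151. For CD49f-high against CD49f-neg they were 2480 and 2232, and with quantile normalization 2186 and 2315, against 2844 and 1697. With quantile normalization the second comparison gave 1577 higher and 1431 lower and the third 1040 and 1004. A pseudocount of 0.1 kept every call of the 8 genes and enlarged the difference of CD49f-high from CD49f-neg to 6.90 for Gpr17 and 6.46 for Moxd1. Levels of a few fragments, such as Gpr17 and Fabp7 in CD49f-neg, carry counting error that these data cannot narrow.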
